A study of Mus musculus with 60 samples.

Results

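TREM receptors and the adaptors through which they signal are described here for mouse liver macrophages by 10 genes of the 24411 in the count table. They are the receptor genes Trem1, Trem2, Trem3 and Treml2, the adaptor genes Tyrobp (DAP12) and Fcer1g (Fc receptor gamma chain), and the signalling genes Syk, Card9, Plcg2 and Vav1. The 10 genes were taken by symbol, and all 10 were in the table. The samples were Kupffer cells, macrophages that reside in the liver, from 15 C57BL/6J mice of 8 weeks, 5 in each of 3 groups: Trem1-deficient mice given carbon tetrachloride (CCl4), wild-type mice given CCl4, and wild-type mice given corn oil. CCl4, a solvent that injures hepatocytes, was given once in corn oil at 2 µl per g of mouse, and all cells were taken 12 h after the injection. How the Trem1-deficient line was made, and which part of the gene it lacks, is not stated in the labels, and the study had no oil-treated Trem1-deficient mice. Cells that bound CD11b beads had been removed before F4/80-positive cells were collected with beads, and the libraries held 3' tags, so a count stands for a transcript end and levels of different genes compare without a length correction.

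The products of Trem1, Trem2 and Trem3 (the description does not cover Treml2) are cell surface proteins of myeloid cells with very short cytoplasmic tails. They signal by pairing with DAP12, an adaptor that carries an ITAM, a tyrosine motif which recruits the kinase SYK once phosphorylated. SYK then acts through the phospholipase PLCG2, the exchange factor VAV1 and the scaffold CARD9. The FcR gamma chain carries the same kind of motif and serves activating Fc receptors and several C-type lectins. TREM-1 amplifies inflammatory cytokine production by neutrophils and monocytes, whereas TREM-2 binds lipids and apolipoproteins and is known from lipid-laden and phagocytic macrophages.

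The Trem genes lie side by side. On GRCm38, Trem1 (chr17:48232768-48246924), Trem3 (chr17:48247777-48258841), Treml4 (chr17:48264295-48275360), Treml2 (chr17:48299498-48312533), Trem2 (chr17:48346401-48354147) and Treml1 (chr17:48359916-48367176) fill 134 kb of chromosome 17, all on the plus strand. A pseudogene on the minus strand, AC241601.2, overlaps Trem1, and whether counting used strand is not stated in the sources used here. Tyrobp (chr7:30413760-30417585), Fcer1g (chr1:171229572-171234365), Syk (chr13:52583173-52648792), Card9 (chr2:26352176-26360918), Plcg2 (chr8:117498291-117635142) and Vav1 (chr17:57279100-57328031) lie elsewhere.

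Upstream regions are shown for the receptor and the adaptor genes that the results turn on. They are the 250 bases before the RefSeq start (build GRCm38.p6), written 5′ to 3′ on the gene's strand, with capitals marking the letters GAGGAA, the core bound by the myeloid factor PU.1, or TTCCTC, the same letters on the opposite strand.
Trem1, chr17:48232489-48232738, plus strand: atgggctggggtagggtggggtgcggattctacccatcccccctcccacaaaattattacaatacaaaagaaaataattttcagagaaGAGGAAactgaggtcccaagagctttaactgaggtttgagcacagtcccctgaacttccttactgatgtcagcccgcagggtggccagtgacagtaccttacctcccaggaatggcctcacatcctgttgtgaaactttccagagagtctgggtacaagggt
Trem2, chr17:48346151-48346400, plus strand: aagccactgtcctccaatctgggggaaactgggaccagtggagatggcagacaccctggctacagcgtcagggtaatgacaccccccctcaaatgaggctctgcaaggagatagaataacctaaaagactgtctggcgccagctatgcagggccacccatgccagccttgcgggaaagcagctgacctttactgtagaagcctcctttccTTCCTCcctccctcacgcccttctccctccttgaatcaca
Fcer1g, chr1:171234350-171234599, minus strand: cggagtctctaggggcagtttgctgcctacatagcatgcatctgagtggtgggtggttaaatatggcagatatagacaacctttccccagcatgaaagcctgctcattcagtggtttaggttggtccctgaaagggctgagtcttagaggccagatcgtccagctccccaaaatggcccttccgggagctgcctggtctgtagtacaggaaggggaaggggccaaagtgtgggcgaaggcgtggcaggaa
The letters began 162 bases before the start of Trem1 and, on the opposite strand, 40 bases before that of Trem2, while the Fcer1g stretch held none. Sequences were matched for 7 of the 10 genes (not for Trem3, Treml2 and Tyrobp), and 4 of these 7 held the letters, the others being Vav1 and 1 of the 2 starts of Syk. Counted by start, 4 of the 8 promoters of these genes held them, and among 32851 promoters of the same length 23.3% did.

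The libraries held 812320 to 2593004 counts in genes, and 3 counts, the upper limit behind a count of 0, were worth 1.16 to 3.69 per 1e6 counts before TMM factors. Levels are given in CPM (counts scaled to a library of 1e6 with TMM factors). On that scale 3 counts were 4.15 CPM in wild-type CCl4 mouse 5. Fold changes come from edgeR's quasi-likelihood test over 9001 genes, and a gene was called when its Benjamini-Hochberg adjusted p was under 0.05. The labels name every mouse as male, but in 7 libraries (Trem1-deficient mice 1 and 2 and all 5 oil mice) Xist exceeded the Y-linked counts, and in the other 8 (Trem1-deficient mice 3 to 5 and all 5 wild-type CCl4 mice) it did not. The index numbers of the libraries divide the mice in the same way, leaving a remainder of 3 or of 4 when divided by 12. The 2 sets are called index series here, from this remainder and not from a recorded batch. In wild type, CCl4 and this division therefore cannot be told apart, while Trem1-deficient mice can be compared with either wild-type group within 1 series. Summed Kupffer cell markers averaged 53200 CPM in the Trem1-deficient, 10300 CPM in the wild-type CCl4 and 54400 CPM in the oil libraries. Clec4f, a lectin that defines Kupffer cells, had at least 184 counts in every library, while Timd4, another such marker, was at 0 in 1 wild-type CCl4 library. Wild-type CCl4 mouse 5 stood apart in several of the 10 genes, with 2 Vav1 counts and 0 Trem2 and Treml2 counts, and also in the Kupffer marker Adgre1, with 3 counts.

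Trem1, the targeted gene, was nearly absent from Trem1-deficient cells, and in wild-type cells it was higher after CCl4 than after oil. Trem1-deficient mice 1 to 5 had 1.67, 2.03, 10.9, 5.71 and 1.17 CPM, from 2 to 25 counts. Wild-type CCl4 mice had 111, 575, 406, 331 and 317 CPM, and oil mice had 32.9, 109, 34.3, 46.1 and 47.8 CPM. None of the 3 groups overlapped with another, although wild-type CCl4 mouse 1 at 111 CPM was close to oil mouse 2 at 109 CPM. The fold change between CCl4 and oil in wild type was 2.69 ± 0.54 on the log2 scale (SE, n = 5 each; edgeR adjusted p = 0.00223). Trem1 deficiency gave a log2 fold change of -6.33 ± 0.65 against wild-type CCl4 (edgeR adjusted p = 7.62e-07) and of -3.64 ± 0.59 against oil (edgeR adjusted p = 0.00104).

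Within 1 index series the deficiency gave a Trem1 log2 fold change of -5.81 against wild-type CCl4 (3 against 5 mice; edgeR adjusted p = 8.77e-05) and of -4.79 against oil (2 against 5 mice; edgeR adjusted p = 0.0935). With index series as a term the rise of Trem1 after CCl4 in wild type came to 1.03 on the log2 scale and was not called (edgeR adjusted p = 1); that term rests on the 5 Trem1-deficient mice, which held 2 to 25 Trem1 counts. Since the removed part of Trem1 is not given, a 3' tag checks the genotype only where the deletion reaches the 3' end.

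**Figure D1:**
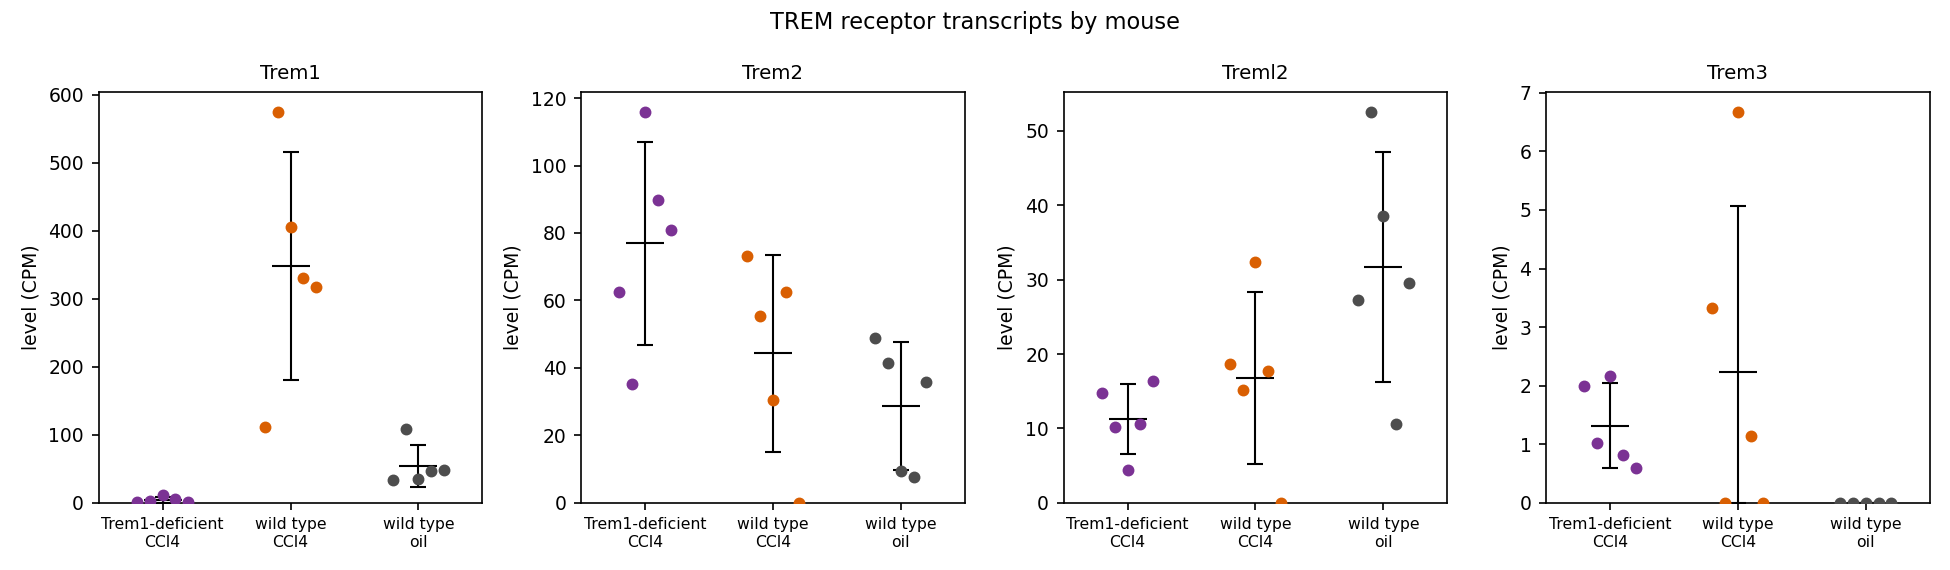
Level in CPM (vertical axes, each starting at 0) of Trem1, Trem2, Treml2 and Trem3 for 5 mice per group; points are mice, horizontal marks are means and error bars are SD, drawn no lower than 0. Trem1 averaged 4.29, 348 and 54.0 CPM in Trem1-deficient CCl4, wild-type CCl4 and wild-type oil mice, while the Trem2 points of the 3 groups overlap.

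Markers of other myeloid cells were also more abundant on average in the libraries with more Trem1, although neither marker sum passed its test between wild-type CCl4 and oil (exact permutation adjusted over 30 tests, p = 0.102 for neutrophil and 0.0595 for monocyte markers). Summed neutrophil markers (S100a8, S100a9 and 7 others found in the table) averaged 5720 CPM in wild-type CCl4 and 728 CPM in oil libraries, with ranges of 1230 to 11000 and 210 to 1750 CPM, and none of the 9 was at 0 in either group. Summed monocyte markers (10 of 10 found) averaged 4040 CPM in wild-type CCl4 and 834 CPM in oil libraries, with ranges of 2700 to 4990 and 542 to 1430 CPM. Their unadjusted exact permutation p of 0.00794 was the smallest that 5 against 5 mice allow. Itgam, which encodes the CD11b chain used for the depletion, averaged 173 ± 79.2 CPM in wild-type CCl4 and 39.7 ± 17.5 CPM in oil libraries (SD, n = 5 each).

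Set against these markers in the same library, Trem1 overlapped between the wild-type groups. There were 6.71, 8.31, 5.23, 3.01 and 25.7 Trem1 counts per 100 neutrophil marker counts in wild-type CCl4 mice 1 to 5, against 6.16, 6.24, 9.58, 22.1 and 6.21 in oil mice. The log2 difference was -0.23 (two-sided exact permutation p = 0.722; p = 0.765 adjusted over the 18 ratio tests). Per 100 monocyte marker counts Trem1 had 8.37 ± 3.66 counts in wild-type CCl4 and 6.48 ± 1.88 counts in oil libraries (SD, n = 5 each), a log2 difference of 0.31 (exact permutation p = 0.429, adjusted p = 0.551). With this spread the ratios are not shown to be equal, and the share of the Trem1 rise that lies in such cells was not tested. In bulk RNA, fewer cells of a type and less RNA per cell cannot be told apart.

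In Trem1-deficient libraries the same ratios were far lower, with 0.364 ± 0.271 Trem1 counts per 100 neutrophil marker counts against 9.80 ± 9.12 in wild-type CCl4 libraries (SD, n = 5 each). The log2 difference was -4.85 (exact permutation p = 0.00794, the smallest that 252 splits allow; adjusted p = 0.0204), and -3.82 within 1 index series (exact permutation p = 0.0357, the smallest for 3 against 5 mice; adjusted p = 0.107). The loss of Trem1 in these libraries was thus larger than the difference in marker level, since summed neutrophil markers averaged 1610 CPM in Trem1-deficient and 5720 CPM in wild-type CCl4 libraries.

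Trem2, next to Trem1 in the genome and likewise a receptor gene whose product pairs with DAP12, was not called in any comparison. Trem1-deficient mice 1 to 5 had 62.5, 35.2, 116, 89.8 and 80.9 CPM, and wild-type CCl4 mice 73.1, 55.4, 30.5, 62.4 and 0 CPM. Oil mice had 48.9, 41.3, 9.29, 7.68 and 35.8 CPM, so all 3 groups overlapped. The means stood in the order 76.8 ± 30.1 CPM in Trem1-deficient, 44.3 ± 29.3 CPM in wild-type CCl4 and 28.6 ± 18.9 CPM in oil mice (SD, n = 5 each), and neither pair of neighbours differed beyond its spread. Trem2 had a log2 fold change of 0.78 ± 0.77 for deficiency after CCl4 (edgeR adjusted p = 0.691), 1.42 ± 0.78 for Trem1-deficient CCl4 against oil (edgeR adjusted p = 1) and 0.64 ± 0.77 for CCl4 in wild type (edgeR adjusted p = 0.725). Among the Trem1-deficient mice, Trem2 was 80.9 to 116 CPM in the 3 of the one index series and 35.2 to 62.5 CPM in the 2 of the other.

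Set against DAP12 in the same library, Trem2 was more frequent after CCl4 in Trem1-deficient cells than after oil in wild-type cells. There were 12.2 ± 5.84 Trem2 counts per 100 Tyrobp counts in Trem1-deficient CCl4 and 2.54 ± 1.53 in oil libraries (SD, n = 5 each), a log2 difference of 2.37 (exact permutation p = 0.0159, adjusted p = 0.0286). Leaving out any of 8 of the 10 mice ended this call, with adjusted p up to 0.0571 by exact permutation and the direction kept; it held without Trem1-deficient mouse 2 or oil mouse 1. Only the 2 Trem1-deficient mice of the index series of the oil mice allow a comparison within it, which gave 1.68 (exact permutation p = 0.190; no split there can give a p under 0.0952). Wild-type CCl4 libraries had 23.6, 11.7, 8.72, 11.4 and 0.147 per 100, and the difference from oil was 1.34 with mouse 5 (exact permutation p = 0.365, adjusted p = 0.505). Without that mouse it was 2.63 (adjusted p = 0.0286), so the value turns on 1 library with 0 Trem2 counts.

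Treml2, whose product is known from B cells, neutrophils and macrophages, was low and was not called. It had 4.35 to 16.4 CPM in Trem1-deficient, 0 to 32.4 CPM in wild-type CCl4 and 10.6 to 52.6 CPM in oil mice, with medians of 10.6, 17.7 and 29.6 CPM in that order. The log2 fold changes were -0.58 ± 0.96, -1.49 ± 0.97 and -0.91 ± 0.96 for deficiency after CCl4, for Trem1-deficient CCl4 against oil and for CCl4 in wild type, with edgeR adjusted p of 0.839, 1 and 0.678. Trem3, an activating receptor gene of mouse macrophages, was too scarce to be tested. It summed to 16 counts over 5 of 5 Trem1-deficient libraries, 14 counts over 3 of 5 wild-type CCl4 libraries and 0 counts over the 5 oil libraries. With oil counted at 3 counts over the group, the pooled level was 3.05-fold higher in Trem1-deficient and 4.96-fold higher in wild-type CCl4 libraries. Only the oil side is limited in these values. They leave out the counting error of the 16 and 14 counts and the spread between mice. Wild-type CCl4 mouse 3 held 7 of the 14 counts, and without it the second value was 3.01-fold.

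The neighbour Treml4, not among the 10 genes and chosen after its values were seen, supplied most of the counts of the 6-gene cluster in the groups where Trem1 was low. Treml4 made up 61.2 to 79.9% of the cluster counts in Trem1-deficient, 0.435 to 43.2% in wild-type CCl4 and 24.3 to 81.0% in oil libraries. Trem1 made up 0.196 to 3.16%, 30.3 to 99.6% and 8.65 to 40.7% in that order. These are shares of 214 to 1019 counts per library and move against one another by construction. As a level Treml4 averaged 276 ± 125 CPM in Trem1-deficient, 89.2 ± 62.3 CPM in wild-type CCl4 and 215 ± 98.0 CPM in oil mice (SD, n = 5 each), with log2 fold changes of 1.62 ± 0.60 for deficiency after CCl4 (edgeR adjusted p = 0.188) and -1.26 ± 0.60 for CCl4 in wild type (edgeR adjusted p = 0.253). All 5 Trem1-deficient mice lay above all 5 wild-type CCl4 mice, and Treml4 was called there with no filter on low counts (1.63; edgeR adjusted p = 0.00653) but under no other setting run.

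**Figure D2:**
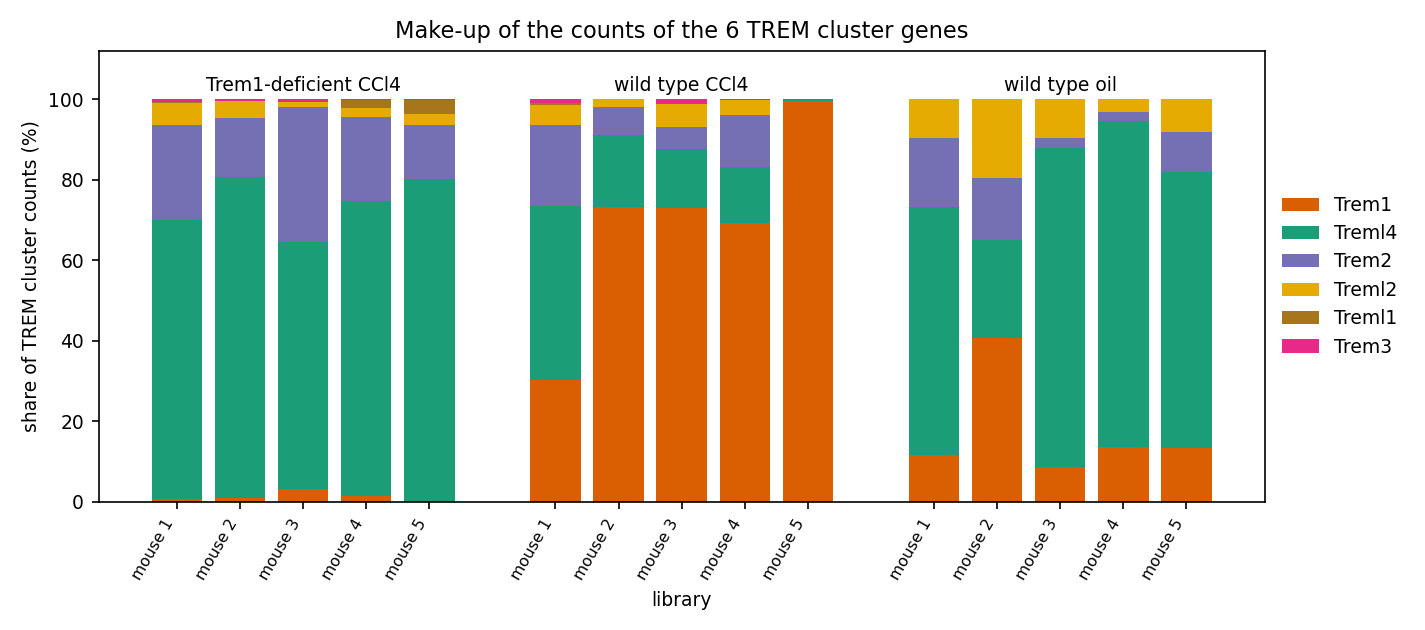
Share (vertical axis, %) of the counts of Trem1, Treml4, Trem2, Treml2, Treml1 and Trem3 in each of the 15 libraries (bars). Trem1 had a median share of 0.853% in Trem1-deficient CCl4, 72.9% in wild-type CCl4 and 13.2% in oil libraries, and Treml4 of 73.4%, 14.6% and 68.6%.

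Both adaptors moved opposite to Trem1 in wild type. In the same libraries summed Kupffer markers averaged 10300 CPM after CCl4 and 54400 CPM after oil, and summed hepatocyte markers 23300 and 6000 CPM. Neither sum passed its test (exact permutation adjusted p = 0.0595 and 0.0794). The part of such differences in cell content in the adaptor levels was not tested. Tyrobp, which encodes DAP12, had 526, 944, 583, 626 and 729 CPM in Trem1-deficient mice 1 to 5, 310, 477, 355, 549 and 470 CPM in wild-type CCl4 mice, and 1170, 1180, 982, 954 and 1170 CPM in oil mice. All oil mice were above all others, and the 2 CCl4 groups overlapped only by Trem1-deficient mouse 1 and wild-type mouse 4. Tyrobp fell after CCl4 in wild type, with a log2 fold change of -1.33 ± 0.26 (SE, n = 5 each; edgeR adjusted p = 0.00135). It was 0.66 ± 0.25 in Trem1-deficient against wild-type CCl4 (edgeR adjusted p = 0.196) and -0.68 ± 0.25 against oil (edgeR adjusted p = 0.679), neither of which was called.

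Fcer1g, the gamma chain gene, followed the same order of group means. Trem1-deficient mice had 297, 365, 375, 216 and 366 CPM, wild-type CCl4 mice had 154, 236, 202, 254 and 96.9 CPM, and oil mice had 458, 442, 426, 449 and 469 CPM. The oil mice lay close together, at 449 ± 16.3 CPM (SD, n = 5), and stood above every other mouse. Fcer1g fell after CCl4 in wild type (log2 fold change -1.25 ± 0.30; edgeR adjusted p = 0.012), and was not called for deficiency after CCl4 (0.78 ± 0.30; edgeR adjusted p = 0.2) or for Trem1-deficient CCl4 against oil (-0.47 ± 0.30; edgeR adjusted p = 1). With index series as a term the falls were -1.15 for Tyrobp and -1.20 for Fcer1g and neither was called (edgeR adjusted p = 0.56 and 0.692). In that fit 0 of the 8 tested genes were called for CCl4 in wild type, and 2 had an unadjusted p under 0.05. Over all 9001 genes that fit called 37, and 606 had an unadjusted p under 0.05.

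The ratio of the 2 adaptor transcripts overlapped between all 3 groups. There were 216 ± 56.1 Tyrobp counts per 100 Fcer1g counts in Trem1-deficient, 256 ± 128 in wild-type CCl4 and 243 ± 21.6 in oil libraries (SD, n = 5 each). Between wild-type CCl4 and oil the log2 difference was -0.03 (exact permutation p = 0.976); without wild-type CCl4 mouse 5, the library at 483 per 100, it was -0.29 (adjusted p = 0.0476). Against the summed Kupffer markers of the same library, Tyrobp came to 5.91 ± 3.82 counts per 100 Kupffer marker counts in wild-type CCl4 and 2.15 ± 0.816 in oil libraries, a log2 difference of 1.21 that did not pass (exact permutation p = 0.0873, adjusted p = 0.143). In Trem1-deficient libraries it was 1.28 ± 0.253, lower than in wild-type CCl4 (log2 difference -1.91) and than in oil libraries (-0.70; exact permutation p = 0.0159 and adjusted p = 0.0286 for each). Leaving out any of 7 of the 10 mice ended the first call and any of 8 of 10 the second, with adjusted p up to 0.0571 by exact permutation and the direction kept. The first held without Trem1-deficient mouse 2 or wild-type CCl4 mouse 1 or 5, and the second without Trem1-deficient mouse 2 or oil mouse 3. Within 1 index series these were -1.98 (exact permutation p = 0.0357) and -0.61 (exact permutation p = 0.190). Trem1 per 100 Tyrobp counts was 0.733 ± 0.726 in Trem1-deficient, 79.6 ± 36.4 in wild-type CCl4 and 4.92 ± 2.53 in oil libraries, and each pair of groups was apart (exact permutation p = 0.00794, adjusted p = 0.0204 each).

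**Figure D3:**
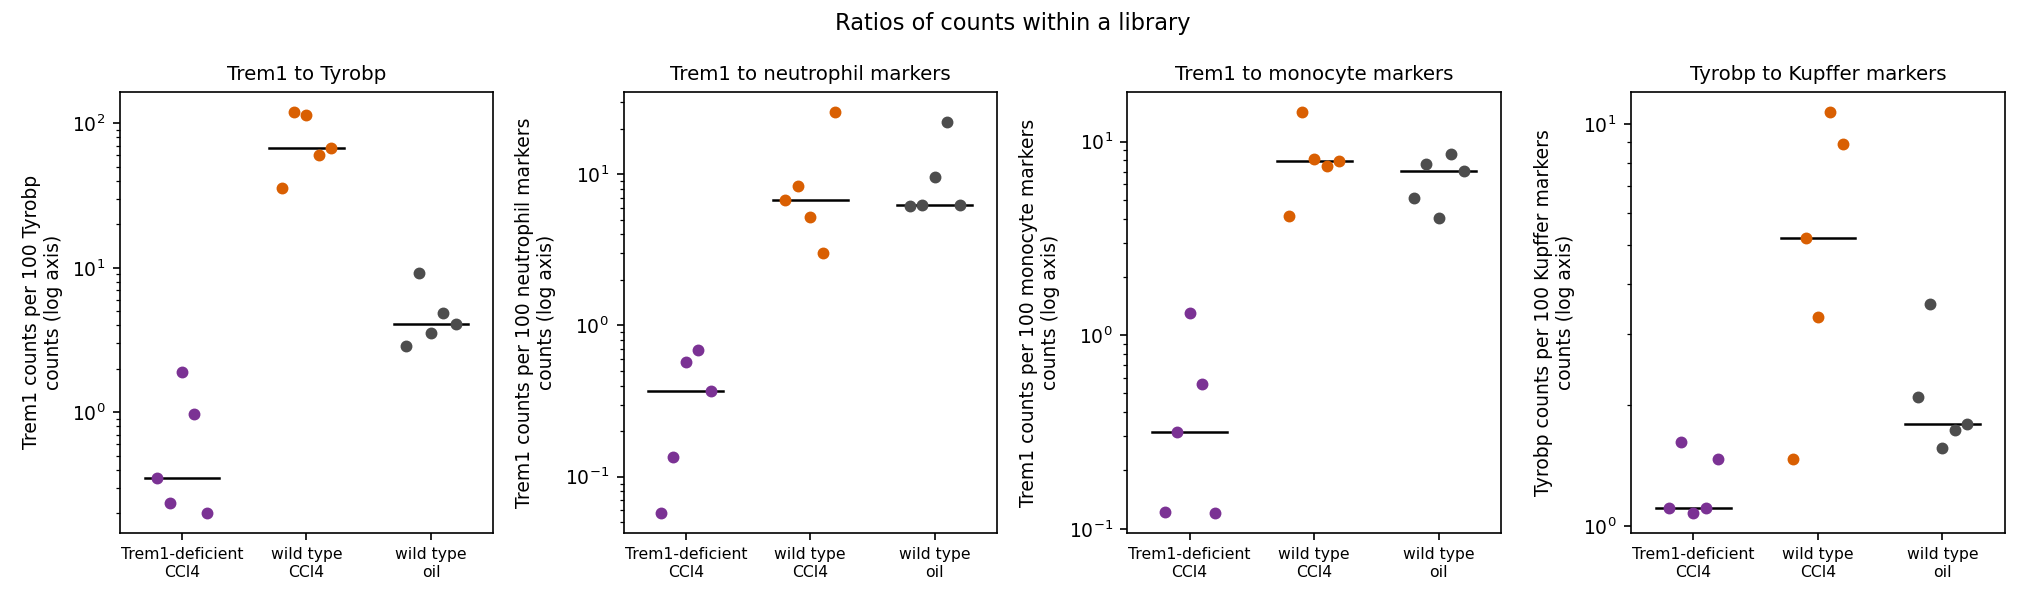
Counts of one transcript per 100 counts of another, or of a summed marker list, within a library (vertical log axes) for 5 mice per group; points are mice and lines are medians. Trem1 per 100 Tyrobp counts had medians of 0.349, 67.4 and 4.10 in Trem1-deficient CCl4, wild-type CCl4 and oil libraries, while the wild-type groups overlap in both ratios of Trem1 to myeloid markers.

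**Figure D4:**
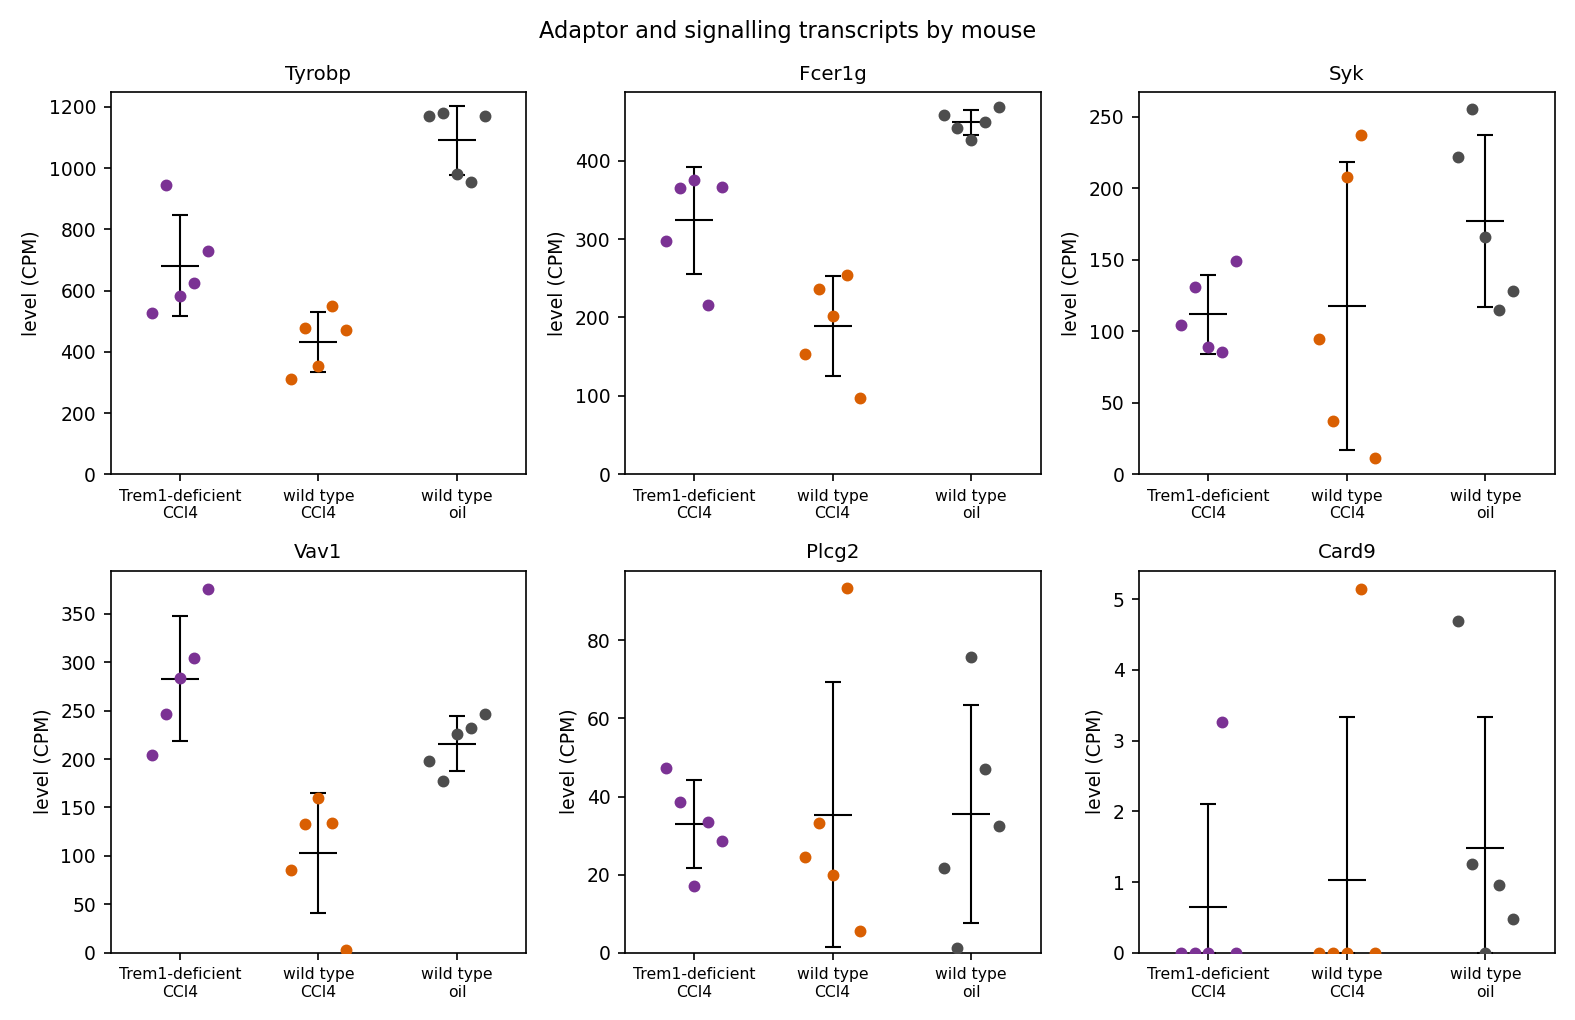
Level in CPM (vertical axes, each starting at 0) of Tyrobp, Fcer1g, Syk, Vav1, Plcg2 and Card9 for 5 mice per group; points are mice, horizontal marks are means and error bars are SD, drawn no lower than 0. Tyrobp averaged 682, 432 and 1090 CPM and Vav1 283, 103 and 216 CPM in Trem1-deficient CCl4, wild-type CCl4 and oil mice.

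Vav1, the exchange factor, was low in the wild-type CCl4 mice. Trem1-deficient mice had 204, 247, 284, 304 and 376 CPM, wild-type CCl4 mice 85.8, 133, 160, 134 and 2.77 CPM, and oil mice 198, 177, 226, 232 and 247 CPM. All wild-type CCl4 mice were below all mice of both other groups, which overlapped with each other. The log2 fold change for deficiency after CCl4 was 1.45 ± 0.49 and was not called (edgeR adjusted p = 0.12). It was called without wild-type CCl4 mouse 5 (1.17, edgeR adjusted p = 0.036), with library totals in place of TMM (1.71, edgeR adjusted p = 0.0445) and with no filter on low counts (1.44, edgeR adjusted p = 0.0188). For CCl4 in wild type it was -1.06 ± 0.48 (edgeR adjusted p = 0.229), and for Trem1-deficient CCl4 against oil 0.39 ± 0.48 (edgeR adjusted p = 1).

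Syk, the kinase bound by the ITAM, varied most in wild-type CCl4 mice. It had 104, 131, 88.7, 85.7 and 149 CPM in Trem1-deficient, 94.4, 37.3, 208, 237 and 11.1 CPM in wild-type CCl4 and 222, 255, 166, 115 and 128 CPM in oil mice. The groups overlapped throughout, and the log2 fold changes of -0.08 ± 0.52, -0.66 ± 0.52 and -0.58 ± 0.52 for deficiency after CCl4, for Trem1-deficient CCl4 against oil and for CCl4 in wild type had edgeR adjusted p of 0.967, 1 and 0.614. Plcg2, the phospholipase, likewise overlapped, at 17.0 to 47.4 CPM in Trem1-deficient, 5.53 to 93.3 CPM in wild-type CCl4 and 1.25 to 75.7 CPM in oil mice. Its log2 fold changes were -0.10 ± 0.83, -0.11 ± 0.83 and -0.01 ± 0.83 in the same order, and with an SE of this size a 2-fold change would not be detectable here. Card9, the scaffold, was not tested: it had 4, 9 and 8 counts in sum over the Trem1-deficient, wild-type CCl4 and oil libraries. All 4 and all 9 counts of the CCl4 groups came from 1 mouse each. The antisense transcript Gm13562 overlaps Card9 and the miRNA gene Gm27361 overlaps Plcg2, so their reads are uncertain.

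Over the 10 genes, 8 were abundant enough to test. For CCl4 in wild type 1 was called higher and 2 lower, where over all tested genes 5.13% were called, 3.04% higher and 2.09% lower. The groups did not overlap for 1 gene in the higher direction (Trem1) and 3 in the lower (Tyrobp, Fcer1g and Vav1), against 3.13% and 3.44% of all tested genes. For deficiency after CCl4 the targeted gene alone was called, where 2.06% of all genes were, 0.778% higher and 1.28% lower. Non-overlap there was met by Vav1 in the higher and Trem1 in the lower direction, against 3.42% and 2.12% of genes. For Trem1-deficient CCl4 against oil Trem1 alone was called again, where 0.233% of genes were, 0.178% higher and 0.0555% lower. Of the tested genes 0 were wholly higher and 3 wholly lower there (Trem1, Tyrobp and Fcer1g), against 1.63% and 1.27%. The median log2 fold change of the 7 tested genes other than Trem1 was 0.66 for deficiency after CCl4, -0.47 for Trem1-deficient CCl4 against oil and -0.91 for CCl4 in wild type, with medians over all genes of -0.03, 0.02 and 0.06. Each pair of these comparisons shares a group of mice, so their values are not independent.

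**Figure D5:**
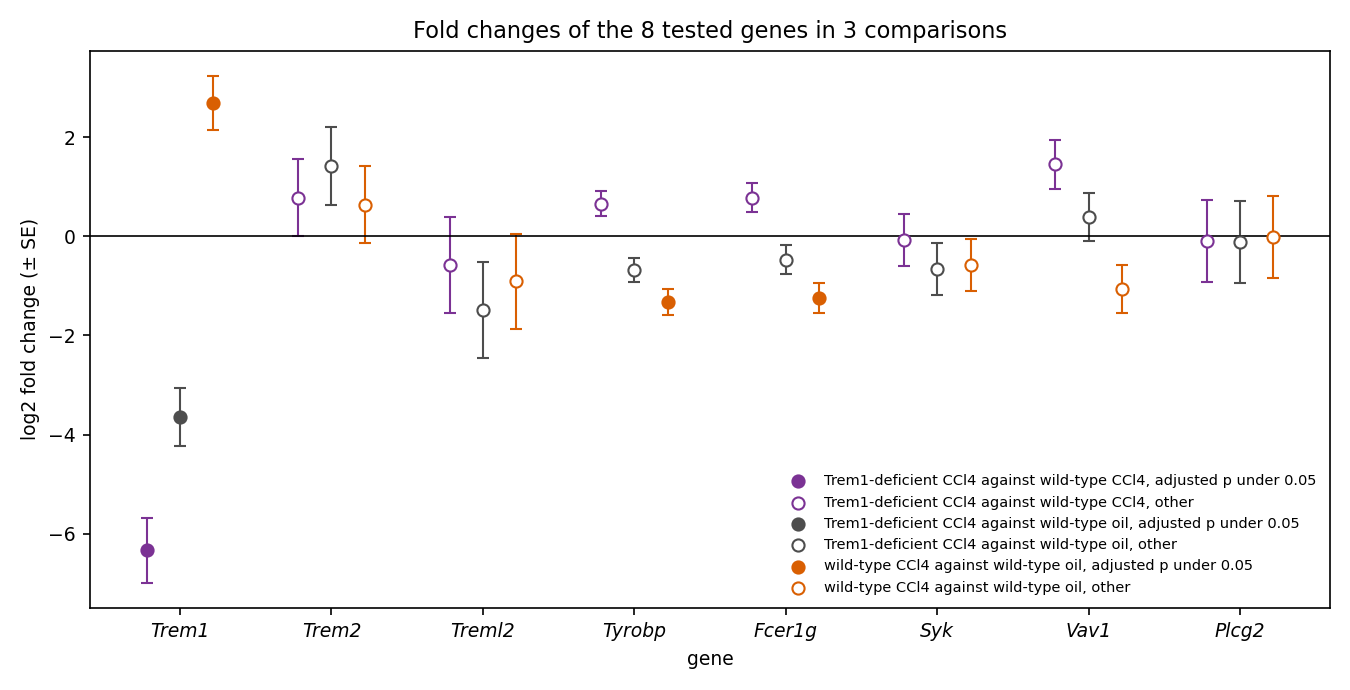
Log2 fold change (vertical axis) with its SE for the 8 tested genes in 3 comparisons (colours); filled points passed the adjusted p threshold of 0.05 and open points did not. Filled points are Trem1 in all 3 comparisons, and Tyrobp at -1.33 and Fcer1g at -1.25 in wild-type CCl4 against wild-type oil.

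Among the other genes of these pathways, the receptors that pair with the gamma chain moved both ways. Of 6 tested, 2 rose and 2 fell after CCl4 in wild type. The C-type lectins Clec4e (Mincle), which binds damage and microbial glycolipids, and Clec4d rose, with log2 fold changes of 4.70 ± 0.74 (edgeR adjusted p = 1.35e-04) and 3.47 ± 0.75 (edgeR adjusted p = 0.00411). The IgG receptors Fcgr4 and Fcgr3 fell by 1.64 and 1.19 on the log2 scale (edgeR adjusted p = 0.00495 and 0.0354), the second of which lost its call when any of 7 of the 10 mice was left out (edgeR adjusted p up to 0.139). With index series as a term Clec4e stayed called at 6.88 (edgeR adjusted p = 9.71e-04), and Clec4d (edgeR adjusted p = 0.493), Fcgr4 (0.606) and Fcgr3 (0.549) did not. Clec4e and Clec4d were also the 2 genes of this list called for deficiency after CCl4, both lower, at -3.57 ± 0.69 (edgeR adjusted p = 0.00352) and -3.35 ± 0.74 (edgeR adjusted p = 0.0108). Within 1 index series they were -4.84 and -3.24 (edgeR adjusted p = 0.00316 and 0.0472). With index series as a term Clec4e was -4.86 and called (edgeR adjusted p = 0.00191) and Clec4d was -3.26 and not (edgeR adjusted p = 0.0964), and without wild-type CCl4 mouse 4 Clec4d was -2.88 and not called (edgeR adjusted p = 0.0658). Clec4e averaged 18.8 CPM in Trem1-deficient, 227 CPM in wild-type CCl4 and 8.6 CPM in oil mice, and the summed neutrophil and monocyte markers named above were on average higher in wild-type CCl4 libraries than in either other group; their part in this was not tested.

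From a list of other TREM family and activating receptor genes, 7 were tested and Cd300ld alone was called, lower after CCl4 in wild type (-1.79 ± 0.42; edgeR adjusted p = 0.00972). Among 17 tested kinases and scaffolds of ITAM signalling, Grb2, an adaptor to the RAS pathway, fell after CCl4 in wild type (-1.37 ± 0.41; edgeR adjusted p = 0.0492), a call lost when any of 6 of the 10 mice was left out (edgeR adjusted p up to 0.105). Of 14 inhibitors, the inhibitory receptor gene Pilra (-2.28 ± 0.52; edgeR adjusted p = 0.0064) and the phosphatase gene Ptpn6 (SHP-1; -1.41 ± 0.35; edgeR adjusted p = 0.0143) fell after CCl4 in wild type, though Ptpn6 was not called without oil mouse 4 (-1.34; edgeR adjusted p = 0.0508). With index series as a term none of Cd300ld, Grb2, Pilra and Ptpn6 was called (edgeR adjusted p = 0.448, 0.79, 0.568 and 0.933). For deficiency after CCl4, 0 genes of these 3 lists were called by edgeR, with 3, 3 and 6 at an unadjusted p under 0.05 and 0, 0 and 4 called by DESeq2.

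Among ligand genes edgeR called Clu and Apoe, and among cytokine genes it called 0. Of 6 tested ligand and sheddase genes, Clu (clusterin), a lipoprotein that TREM-2 binds, rose after CCl4 in wild type (2.71 ± 0.49; edgeR adjusted p = 6.71e-04) and was lower in Trem1-deficient than in wild-type CCl4 cells (-1.84 ± 0.47; edgeR adjusted p = 0.0348). The second call was lost when any of 6 of the 10 mice was left out (edgeR adjusted p up to 0.122) and within 1 index series (-1.37; edgeR adjusted p = 0.308), and the first with index series as a term (1.13; edgeR adjusted p = 0.938). Apoe, the other lipoprotein ligand, fell after CCl4 in wild type (-0.89 ± 0.23; edgeR adjusted p = 0.0189), by 1.79 with index series as a term (edgeR adjusted p = 0.0142), but was not called without wild-type CCl4 mouse 4, oil mouse 1 or oil mouse 5 (edgeR adjusted p up to 0.0586). Hepatocytes make both proteins, and summed hepatocyte markers averaged 5930 CPM in Trem1-deficient, 23300 CPM in wild-type CCl4 and 6000 CPM in oil libraries; their part in the Clu values was not tested. Of 10 cytokine genes known downstream of TREM-1, edgeR called 0 in each comparison. For CCl4 in wild type 4 had an unadjusted p under 0.05 (1 higher, 3 lower) and DESeq2 called 2. For deficiency after CCl4 the numbers were 5 (3 higher, and 2 lower with Il1b among them) and 1. For Trem1-deficient CCl4 against oil they were 1 (Il1b, lower) and 0. Il1b, an inflammasome cytokine, averaged 1190 CPM in Trem1-deficient, 1980 CPM in wild-type CCl4 and 1940 CPM in oil mice, with edgeR adjusted p of 0.214 for deficiency after CCl4 and 0.97 for CCl4 in wild type; it is named here after its values were seen.

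Genes of the macrophage state that depends on TREM-2 in other tissues did not move as one. At an unadjusted p under 0.05, 4 of 8 tested genes were higher and 3 lower after CCl4 in wild type, and DESeq2 called 6. For deficiency after CCl4, 3 were higher and 3 lower, Cd63 among the latter, and DESeq2 called 4. For Trem1-deficient CCl4 against oil 3 were higher, and DESeq2 called 2. The median log2 fold change of the list was 2.03, -0.23 and 0.84 in these 3 comparisons, in the order given. Medians over all tested genes were 0.06, -0.03 and 0.02. Of 8 tested, Cd63, a tetraspanin of lysosomes and exosomes, rose after CCl4 in wild type (3.65 ± 0.40; edgeR adjusted p = 1.10e-06), while the lysosomal protease genes Ctsb (-1.18 ± 0.25; edgeR adjusted p = 0.00327) and Ctsd (-0.93 ± 0.24; edgeR adjusted p = 0.0157) fell. With index series as a term Cd63 stayed called at 3.38 (edgeR adjusted p = 0.00844) while Ctsb and Ctsd did not (edgeR adjusted p = 0.12 and 0.293); Ctsd was not called without wild-type CCl4 mouse 2 or oil mouse 1 either (-0.84 each). Cd63 was also higher in Trem1-deficient CCl4 than in oil cells (2.53 ± 0.38; edgeR adjusted p = 6.26e-04), and by 2.38 within 1 index series (edgeR adjusted p = 0.0387). For deficiency after CCl4, Lpl, which encodes lipoprotein lipase, rose (1.57 ± 0.27; edgeR adjusted p = 0.00116), as did Ctsd (1.26 ± 0.24; edgeR adjusted p = 0.0026) and Ctsb (1.05 ± 0.25; edgeR adjusted p = 0.0183). Within 1 index series Lpl was 1.78 and called (edgeR adjusted p = 0.0208), and Ctsd at 1.41 and Ctsb at 1.22 were not (edgeR adjusted p = 0.0544 and 0.147). Ctsb was also not called without Trem1-deficient mouse 5 or wild-type CCl4 mouse 3 or 4 (0.91 to 0.97; edgeR adjusted p up to 0.0602). Mean summed Kupffer markers differed in the direction of Ctsd and Ctsb in both comparisons without passing their test (exact permutation adjusted p = 0.0595 in each), and their part was not tested. In both comparisons the groups did not overlap in these sums, and the unadjusted exact permutation p of 0.00794 was the smallest that 5 against 5 mice allow. For Trem1-deficient CCl4 against oil, edgeR called 0 genes of the other lists, with 1 ligand and 1 cytokine gene at an unadjusted p under 0.05 and 0 called by DESeq2.

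Within groups, genes were ranked by how closely their deviations from the group means followed those of a member, as a description over 7841 genes averaging at least 10 CPM. Over the 10 wild-type libraries the genes most like Trem1 were Nod1 (Pearson r = 0.94), Mt2 (0.93), Elovl5 (0.93), Sorl1 (0.93) and Wfdc21 (0.92), and its DAP12 adaptor gene Tyrobp reached 0.56. Over all 15 libraries those most like Trem2 were Nr3c1 (0.94), Tra2a (0.93), Cyb5b (0.92), Hhex (0.92) and Ecm1 (0.92). Without wild-type CCl4 mouse 5, which had 0 Trem2 counts, these 5 came to 0.80, 0.69, 0.70, 0.71 and 0.82, and Vav1, at 0.82 with that mouse, came to -0.20. The genes most like Tyrobp over 15 libraries were Rplp0 (0.74), Gnb2l1 (0.74), Myd88 (0.73), H2-K1 (0.72) and Scand1 (0.70); Fcer1g stood at 0.27, and at 0.61 without the same mouse. The points of each such value share libraries, their depth and the scaling. The 5 genes given for each member were picked as the highest of 7841 values over only 10 or 15 libraries. Some values of this size can arise by such picking alone, and no test was run.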

How the data were processed

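Kupffer cell RNA of 15 mice was profiled with Lexogen QuantSeq 3' tag libraries, per the labels' protocols. The authors deposited raw counts of reads per gene in 1 table with 1 column per mouse; the labels list 60 entries, 4 lanes per mouse, and the mouse was the replicate. The submitters' processing notes name build mm10, Trimmomatic, STAR 2.5.1a and Partek 6.6, without saying how each was used; the annotation and strand setting are not given there. Of the lines, 4 are tallies that name no gene and were left out; genes took 12.6 to 28.8% of reads. No molecular identifiers are mentioned, so floors cover counting error only.

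Counts were fitted with edgeR 4.0.16 in R 4.3.3 (TMM, filterByExpr by group, robust quasi-likelihood F-test, 1 fit of 15 libraries, 12 residual degrees of freedom), with Benjamini-Hochberg adjustment over all 9001 tested genes; DESeq2 1.42.0 was an alternative. The code was tested on simulated data. Ratios of counts (0.5 added to each) and 10 summed marker lists were log2 transformed and tested with exact permutations (two-sided), adjusted over 18 and 30 tests. No summed marker list passed (smallest adjusted p = 0.0595). Kupffer and monocyte sums gave it in both comparisons with wild-type CCl4, at an exact permutation p of 0.00794, the smallest that 5 against 5 mice allow. Among single markers, edgeR called 10 of 12 Kupffer genes lower after CCl4 in wild type (2.09% of all genes) and 10 higher for deficiency (0.778%). Of 10 monocyte genes, 5 were called higher after CCl4 in wild type (3.04% of all genes) and 3 lower for deficiency (1.28%). The other lists averaged, in Trem1-deficient, wild-type CCl4 and oil libraries, sinusoidal endothelial 2340, 1310 and 1600 CPM, T and NK 19.8, 116 and 59.2 CPM, B 36.6, 34.1 and 45.0 CPM, dendritic 66.3, 213 and 61.2 CPM, stellate 72.4, 105 and 96.9 CPM, and erythroid and platelet 46.4, 55.3 and 37.8 CPM.

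Named were all 10 genes, up to 4 called genes with the smallest p of each pathway list in a comparison, and the 5 genes most like Trem1, Trem2 and Tyrobp; Treml4, Treml1 and Il1b fall outside this rule and were chosen after their values were seen. Members, lists and tests were chosen with earlier results of these data known. Positions come from the GENCODE M21 annotation (GRCm38, which is mm10). No pair of libraries of a group was a repeat of another (lowest chi-square over its degrees of freedom, 10.2). The likeness without wild-type CCl4 mouse 5 and the Trem3 value without mouse 3 were chosen after seeing the data. Mouse numbers name animals and were not taken as pairs.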

Additional observations from a re-analysis of the deposited data

Results flagged for a closer look

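Each value here came from 1 mouse whose gap to the nearest of the other 4 in its group took more than 0.71 of the group's range. For normally distributed values chance gives about 1 such mouse in 20 groups, and 34 groups of values were looked at. Where 4 mice are at 0, any count in the other mouse meets the rule. The rate therefore does not hold for Card9 in the CCl4 groups or for Treml1 in wild-type CCl4 mice. Trem1 stood at 109 CPM in oil mouse 2, where the nearest oil mouse had 47.8 CPM. The same library gave Trem1 the largest share of the TREM cluster among oil mice, at 40.7%. Card9 stood at 3.26 CPM in Trem1-deficient mouse 4, 5.15 CPM in wild-type CCl4 mouse 4 and 4.70 CPM in oil mouse 1, values that rest on 4, 9 and 5 counts. Treml1, at the end of the cluster, stood at 1.99 CPM in wild-type CCl4 mouse 1 from 3 counts, where the other 4 mice had 0.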

How the results depend on the processing

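For CCl4 in wild type the 3 called genes became 0 with index series as a term, a fit that called 37 of all 9001 genes. For deficiency after CCl4 the 1 call became 2, Vav1 being added, with library totals, with no filter and without wild-type CCl4 replicate 5, so that leaving out mice gave 1 to 2. For Trem1-deficient CCl4 against oil the 1 call became 0 within 1 index series (2 against 5 mice; 1 gene at an unadjusted p under 0.05). The replicate block kept 3, 1 and 1 calls in the order CCl4 in wild type, deficiency after CCl4, Trem1-deficient CCl4 against oil; same-numbered mice did not deviate together (r from -0.06 to 0.04).

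Fold changes near 0 took both signs. Plcg2 for CCl4 in wild type was 0.04 with RLE factors and with DESeq2, 0.05 with no filter, 0.70 with the index term and -0.77 to 0.46 with 1 mouse left out. Plcg2 for deficiency after CCl4 was 0.14 with library totals, 0.26 with the replicate block and -0.34 to 0.66 with 1 mouse left out. Against oil it was 0.09 with the replicate block, 0.27 with the index term, 0.28 within 1 series and -0.42 to 0.36 with 1 mouse left out. Syk for deficiency after CCl4 was 0.20 with library totals and with the replicate block, and -0.34 to 0.34 with 1 mouse left out. Trem2 for CCl4 in wild type was -0.33 with the index term. Treml4 against oil was -0.21 with the index term and -0.19 within 1 series. Il1b for CCl4 in wild type was -0.14 with library totals, -0.27 with the index term and -0.24 to 0.30 with 1 mouse left out. Clu for deficiency after CCl4 was not called with the replicate block (-1.70).

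Ratios within 1 index series kept their direction but no longer passed, fewer mice being compared. For deficiency after CCl4 they were -6.65 (Trem1 to Tyrobp), -1.98 (Tyrobp to Kupffer markers), -3.82 (Trem1 to neutrophil markers) and -4.13 (Trem1 to monocyte markers). Against oil they were -3.98, 1.68 (Trem2 to Tyrobp), -0.61, -6.63 and -4.99. With 1 mouse left out, Trem2 to Tyrobp was 2.05 to 2.75 against oil, 0.80 to 2.63 for CCl4 in wild type and -0.26 to 1.57 for deficiency after CCl4. Tyrobp to Kupffer markers was -2.34 to -1.62 for deficiency after CCl4 and -0.80 to -0.51 against oil. These calls were lost when any of 8 (Trem2 to Tyrobp against oil), 7 and 8 (Tyrobp to Kupffer markers, in that order) of 10 mice was left out, with adjusted p up to 0.0571. Tyrobp to Fcer1g was -0.29 to 0.08 for CCl4 in wild type and -0.29 to 0.09 for deficiency after CCl4, and Trem1 to neutrophil markers was -0.68 to 0.10 for CCl4 in wild type.

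Summed markers that changed sign when 1 mouse was left out ranged as follows on the log2 scale. For CCl4 in wild type they were B (-0.31 to 0.78), sinusoidal endothelial (-0.49 to 0.09), erythroid and platelet (-0.28 to 1.29) and T and NK (-0.29 to 1.34). For deficiency after CCl4 they were B (-0.30 to 0.70), dendritic (-1.29 to 0.03) and erythroid and platelet (-0.64 to 0.51). Against oil they were B (-0.18 to 0.80), dendritic (-0.14 to 0.20), stellate (-0.38 to 0.38), Kupffer (-0.17 to 0.08), hepatocyte (-0.71 to 0.15) and erythroid and platelet (-0.09 to 0.97). The causes of these changes were not tested. Of 448 member fold changes under alternatives, 414 kept their direction and side of the threshold. Over all genes, called genes under DESeq2 numbered 1084, 660 and 75, with no filter 813, 563 and 73, and with the index term 37, 77 and 11, in the order given above. At these depths Trem3 and Card9 could not be tested.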
